A study of Mus musculus with 12 samples.

Results

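The pacemaker, sodium and voltage-gated calcium channels described here are the products of 8 genes, namely the pacemaker channel genes Hcn2 and Hcn4, the sodium channel beta subunit gene Scn4b, the calcium channel pore genes Cacna1c, Cacna1g and Cacna1h, and the calcium channel auxiliary genes Cacnb2 and Cacna2d1. All 8 were found among the 19937 genes that had a probe set (the group of probes read as one transcript) with a single gene symbol, and the probe set with the highest mean stood for a gene. RNA of mouse hearts was measured on 12 Affymetrix arrays. They fall into 4 hearts of mice with mutant IDH2 R140Q, 4 of mice with mutant IDH2 R172K and 4 of control mice, all on a mixed background of the C57BL/6, 129/sv and Balb/c strains. The mutant mice received 2 mg of 4-hydroxytamoxifen on 3 days when 5 weeks old. The sources used here do not give the treatment or exact genotype of the control mice, the promoter that drove the mutant genes, the sex of the mice or the time to dissection. In comparisons with control hearts, drug and mutation cannot be told apart. The labels do not say whether each array had its own mouse, and the p-values then cover only the spread among these arrays, which may be technical.

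IDH2 is the isocitrate dehydrogenase of mitochondria, and both mutant forms are known to make D-2-hydroxyglutarate from 2-oxoglutarate. HCN channels open when a heart cell repolarises and carry the inward current that drives the spontaneous beat of the sinoatrial node, with Hcn4 as the main node subunit and Hcn2 also present in working heart muscle. T-type calcium channels, whose pore genes include Cacna1g (Cav3.1) and Cacna1h (Cav3.2), open near the resting voltage, help to pace the node and are common in fetal ventricle but sparse in adult ventricle. The L-type channel of adult heart muscle has the Cacna1c product (Cav1.2) as its pore, a beta subunit such as that of Cacnb2, and the alpha2delta subunit of Cacna2d1. Its calcium influx triggers release from the sarcoplasmic reticulum at each beat. Scn4b encodes a beta subunit that modulates the gating of voltage-gated sodium channels.

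The hearts held strong signal for heart muscle genes such as Actc1 (mean log2 intensity 13.70), Tnnt2 (13.57) and Atp2a2 (13.44). Idh2 had a mean log2 intensity of 12.45 in R140Q, 12.38 in R172K and 12.74 in control hearts, and neither mutant differed from control by the test (limma adjusted p = 0.301 and 0.109). The atrial light chain gene Myl7 ranged from 5.23 to 6.04 in R140Q, from 7.43 to 11.36 in R172K and from 6.18 to 12.49 in control hearts, with the highest values in R172K 3 and control 3. The lung gene Sftpc was at 11.57 in R140Q 4 and between 4.66 and 5.51 in all other hearts. R172K 4 had the lowest Idh2 (11.88), a summed intensity of 10 heart muscle markers of 77496, against 87800 to 89863 in the other R172K hearts, and one of 8 fibroblast markers of 22956, against 11910 to 16885. These 4 arrays stand apart, and the calls of the 8 genes are given with and without them.

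In R140Q hearts Hcn4, Cacna1g and Cacna2d1 fell to between 0.49 and 0.56 times the control level. In R172K hearts the same genes fell to between 0.44 and 0.53 times the control level, and Hcn2 and Cacna1c fell as well. No member rose. Called members numbered 3 of 8 in R140Q against control and 5 of 8 in R172K against control, by limma with Benjamini-Hochberg adjustment over all 19937 genes and an adjusted p under 0.05. Of all genes, 2.20% were called in the R140Q comparison (1.12% lower and 1.08% higher) and 13.0% in the R172K comparison (6.78% lower and 6.23% higher). All mutant hearts lay below all control hearts for 3 of the 8 in R140Q and 4 in R172K, as was so for 7.04% and 8.72% of all genes. The median log2 difference of the 8 genes was -0.29 in R140Q hearts and -0.62 in R172K hearts, against 0.003 and -0.003 over all genes. Both comparisons use the same 4 control arrays. Bulk tissue RNA cannot tell fewer cells of a type apart from less RNA per cell.

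**Figure D1:**
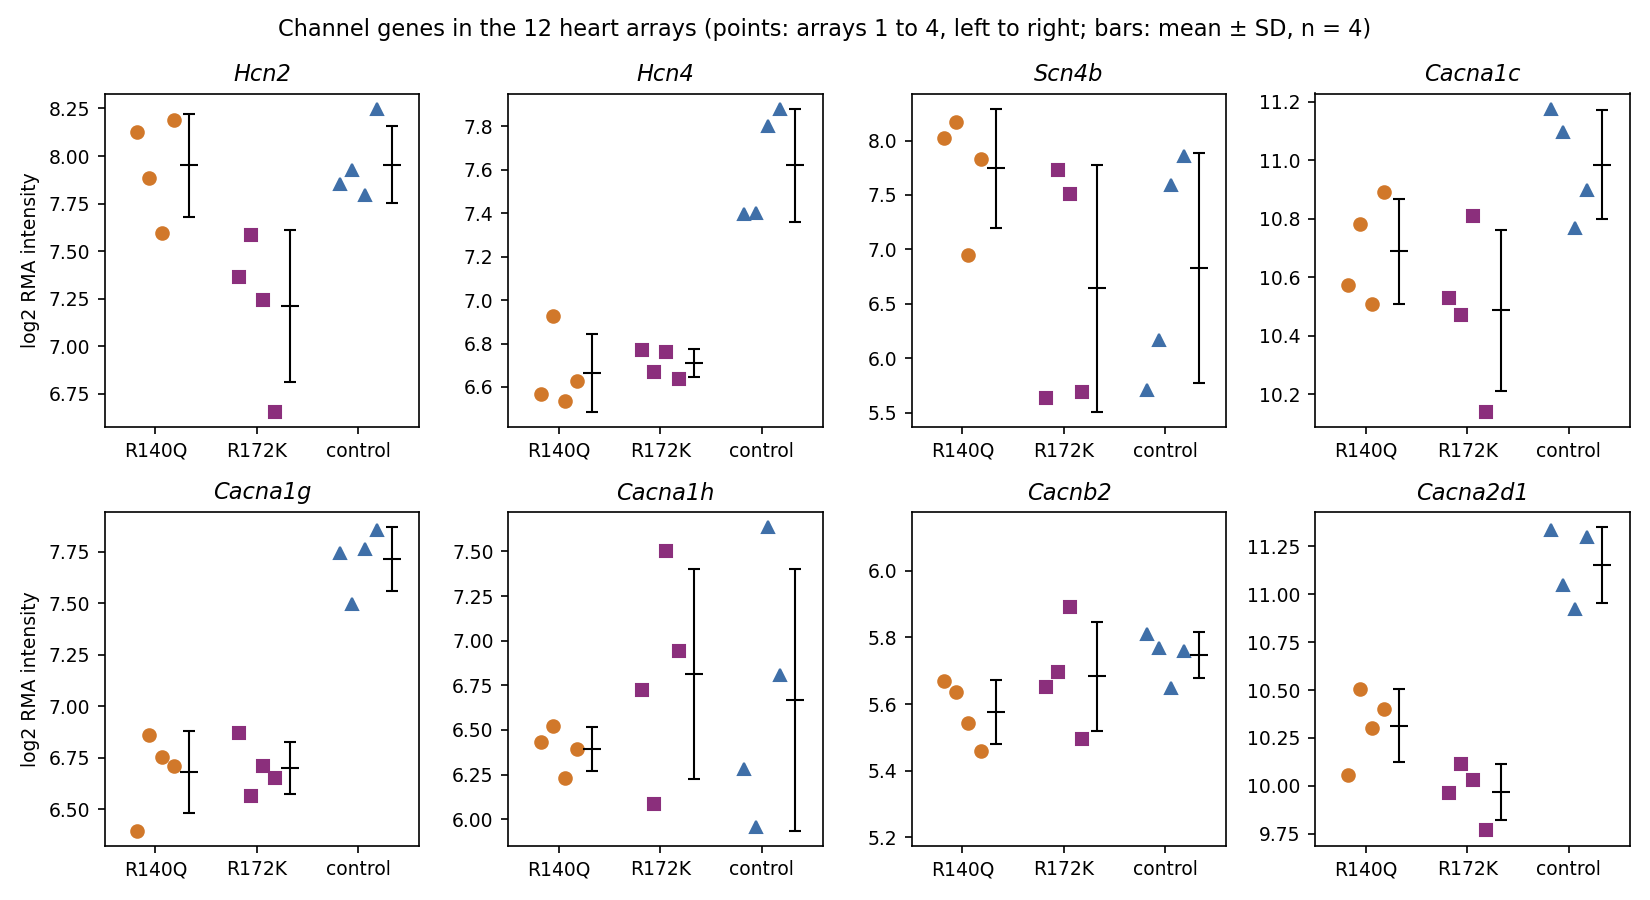
Log2 RMA intensity of the 8 channel genes (vertical axes) in the R140Q, R172K and control hearts (horizontal axes). Each point is an array and the bars give the mean ± SD of 4 arrays. For Hcn4, Cacna1g and Cacna2d1 all mutant hearts lie below all control hearts, while Scn4b and Cacna1h spread widely within groups.

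Hcn4, the main pacemaker channel gene of the sinoatrial node, was lower in every mutant heart than in any control heart. Its log2 intensity was 6.57, 6.92, 6.54 and 6.62 in R140Q hearts, 6.77, 6.67, 6.76 and 6.64 in R172K hearts, and 7.40, 7.40, 7.80 and 7.88 in control hearts. The R172K arrays lay closest together (6.71 ± 0.07, SD, n = 4), and the control arrays formed a lower and a higher pair. Hcn4 fell by 0.96 ± 0.12 (SE) in log2 in R140Q hearts (95% interval -1.22 to -0.70, limma adjusted p = 0.00394). In R172K hearts it fell by 0.91 ± 0.12 (95% interval -1.17 to -0.65, adjusted p = 0.00152). The mutants did not differ by the test, with a log2 difference of 0.05 for R172K minus R140Q (95% interval -0.21 to 0.31, adjusted p = 0.909).

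Hcn2, the pacemaker channel gene also present in working heart muscle, passed the test in R172K but not in R140Q hearts. It stood at 8.13, 7.89, 7.60 and 8.19 in R140Q hearts, at 7.37, 7.59, 7.24 and 6.65 in R172K hearts, and at 7.85, 7.92, 7.79 and 8.25 in control hearts. R140Q and control hearts overlapped. The highest R172K value, 7.59, lay just below the lowest R140Q value, 7.60, and further below the lowest control value, 7.79. The R140Q difference was -0.004 ± 0.187 (95% interval -0.41 to 0.40, limma adjusted p = 0.994). In R172K hearts Hcn2 fell by 0.74 ± 0.19 (95% interval -1.15 to -0.34, adjusted p = 0.0217), or to 0.60 times the control level. The difference between R172K and R140Q, -0.74 ± 0.19, did not pass the test (adjusted p = 0.0708), although the groups did not overlap, as was so for 4.64% of all genes in that direction. The R172K decrease did not pass without control 2 (adjusted p = 0.0521) or control 4 (0.0623), and was -0.56 without R172K 4 (0.0363).

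The log2 ratio of Hcn4 to Hcn2 within an array shows whether the pair changed by unequal amounts. It averaged -1.29 ± 0.32 in R140Q hearts, -0.50 ± 0.37 in R172K hearts and -0.33 ± 0.24 in control hearts (SD, n = 4 each). The R140Q values, from -1.57 to -0.96, lay below all control values, from -0.53 to 0.01. That shift of -0.95 had an exact two-sided permutation p of 0.0286, the smallest that 4 against 4 arrays allow, and an adjusted p of 0.0857 over the 6 ratio tests run. The shift of R172K against R140Q, 0.79, had the same exact p and adjusted p. Without control 3 the adjusted exact permutation p of both shifts was 0.0429. The R172K against R140Q shift does not use that array, so its adjusted p moved only through the other tests adjusted with it. The shift of R172K against control was -0.17 (exact permutation p = 0.4).

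The promoter windows of Hcn4 and Hcn2, the pacemaker genes set against each other above, and of Cacna2d1, the gene with the largest decrease in R172K hearts among the 8, are shown because these genes fell together in at least R172K hearts. RefSeq (GRCm38.p6) gives windows for 6 of the 8 genes, for some more than 1. Each runs from 250 bases before to 50 bases after a start site and is printed 5′ to 3′ on the strand of the gene. The Cacna2d1 gene itself begins at 15934264, before its window. Capitals mark GC boxes (GGGCGG or, on the other strand, CCGCCC).
Hcn4 (chr9:58822699-58822998, + strand): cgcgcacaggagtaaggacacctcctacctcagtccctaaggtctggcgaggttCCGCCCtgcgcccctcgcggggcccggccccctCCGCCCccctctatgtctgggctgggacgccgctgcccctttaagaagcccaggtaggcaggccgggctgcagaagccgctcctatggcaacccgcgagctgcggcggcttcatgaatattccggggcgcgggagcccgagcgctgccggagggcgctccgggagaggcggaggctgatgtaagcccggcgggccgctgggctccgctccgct
Hcn2 (chr10:79716384-79716683, + strand): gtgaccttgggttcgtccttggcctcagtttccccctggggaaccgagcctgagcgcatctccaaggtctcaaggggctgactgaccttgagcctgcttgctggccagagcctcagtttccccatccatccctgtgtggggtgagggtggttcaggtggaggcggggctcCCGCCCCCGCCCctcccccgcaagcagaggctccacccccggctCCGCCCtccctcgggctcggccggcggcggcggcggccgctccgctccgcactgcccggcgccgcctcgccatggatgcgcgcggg
Cacna2d1 (chr5:15934441-15934740, + strand): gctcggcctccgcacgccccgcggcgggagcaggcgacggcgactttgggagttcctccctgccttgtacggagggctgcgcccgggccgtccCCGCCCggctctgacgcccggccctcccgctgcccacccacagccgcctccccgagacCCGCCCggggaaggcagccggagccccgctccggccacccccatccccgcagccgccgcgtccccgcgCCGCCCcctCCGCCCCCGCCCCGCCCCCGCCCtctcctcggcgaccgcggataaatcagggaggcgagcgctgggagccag

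The Hcn4 window held 2 GC boxes, the Hcn2 window 3 and the Cacna2d1 window 7, some of them next to or overlapping each other. A GC box was found in 35.7% of all 32851 promoter windows. The G and C content was 71.7% for Hcn4, 72.3% for Hcn2 and 80.0% for Cacna2d1, against a median of 52.7% over all windows. None of these 3 windows held a TATA box (TATAAA, found in 13.6% of all windows), a MEF2 box (3.69%), a cyclic AMP response element (TGACGT, 7.51%), a T-box site (GGTGTG, 19%) or a GATA site (AGATAA, 11.2%), with each motif searched on both strands. Cacna1c, which also fell in R172K hearts, has 3 windows, not printed, with 0, 6 and 0 GC boxes (51.3%, 81.3% and 51.3% G and C). Of the genes not called, Cacnb2 has 2 windows with 1 and 0 GC boxes (71.7% and 44.0%). Scn4b has 1 window with 0 GC boxes (66.3%). Whether GC boxes bear on the decreases was not tested.

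Among the calcium channel pores, the T-type gene Cacna1g had the largest decrease in R140Q hearts. Its log2 intensity was 6.40, 6.86, 6.75 and 6.71 in R140Q hearts, 6.87, 6.57, 6.71 and 6.65 in R172K hearts, and 7.75, 7.50, 7.76 and 7.86 in control hearts. All 8 mutant hearts lay below the lowest control heart. Cacna1g fell by 1.04 ± 0.11 in R140Q hearts (95% interval -1.27 to -0.80, limma adjusted p = 0.00281). It fell by 1.02 ± 0.11 in R172K hearts (95% interval -1.25 to -0.78, adjusted p = 0.000678). Between the mutants the difference was 0.02 (95% interval -0.22 to 0.25, adjusted p = 0.959).

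Cacna1h, a T-type pore gene as well, did not pass the test in any comparison. Its log2 intensity was 6.43, 6.52, 6.23 and 6.40 in R140Q hearts, 6.72, 6.08, 7.50 and 6.94 in R172K hearts, and 6.28, 5.96, 7.64 and 6.81 in control hearts. Its highest values were those of R172K 3 and control 3, the arrays highest in Myl7, and its lowest were those of R172K 2 and control 2, which had the lowest Myl7 of their groups. The difference was -0.28 ± 0.33 for R140Q (95% interval -0.99 to 0.44, limma adjusted p = 0.755) and 0.14 ± 0.33 for R172K (95% interval -0.57 to 0.86, adjusted p = 0.84). Without control 3, R172K 3 and R140Q 4 the R140Q difference was 0.045. The intervals leave room for a change in either direction.

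The log2 ratio of Cacna1g to Cacna1h averaged 0.29 ± 0.23 in R140Q, -0.11 ± 0.55 in R172K and 1.05 ± 0.65 in control hearts. Control 3, at 0.13, lay among the mutant hearts, and the other 3 control hearts lay between 1.05 and 1.54. The shift against control was -0.76 in R140Q hearts (exact permutation p = 0.114, adjusted p = 0.171) and -1.16 in R172K hearts (exact permutation p = 0.0857, adjusted p = 0.171). Without control 3 the shifts were -1.07 and -1.47, each with an adjusted exact permutation p of 0.0429. The 2 Hcn4 to Hcn2 shifts named above took that same value, and control 3 was the control heart that lay among the mutants here. No other alternative passed, with adjusted p up to 0.375 for R140Q and up to 0.257 for R172K, and 0.15 for each without control 3, R172K 3 and R140Q 4.

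**Figure D2:**
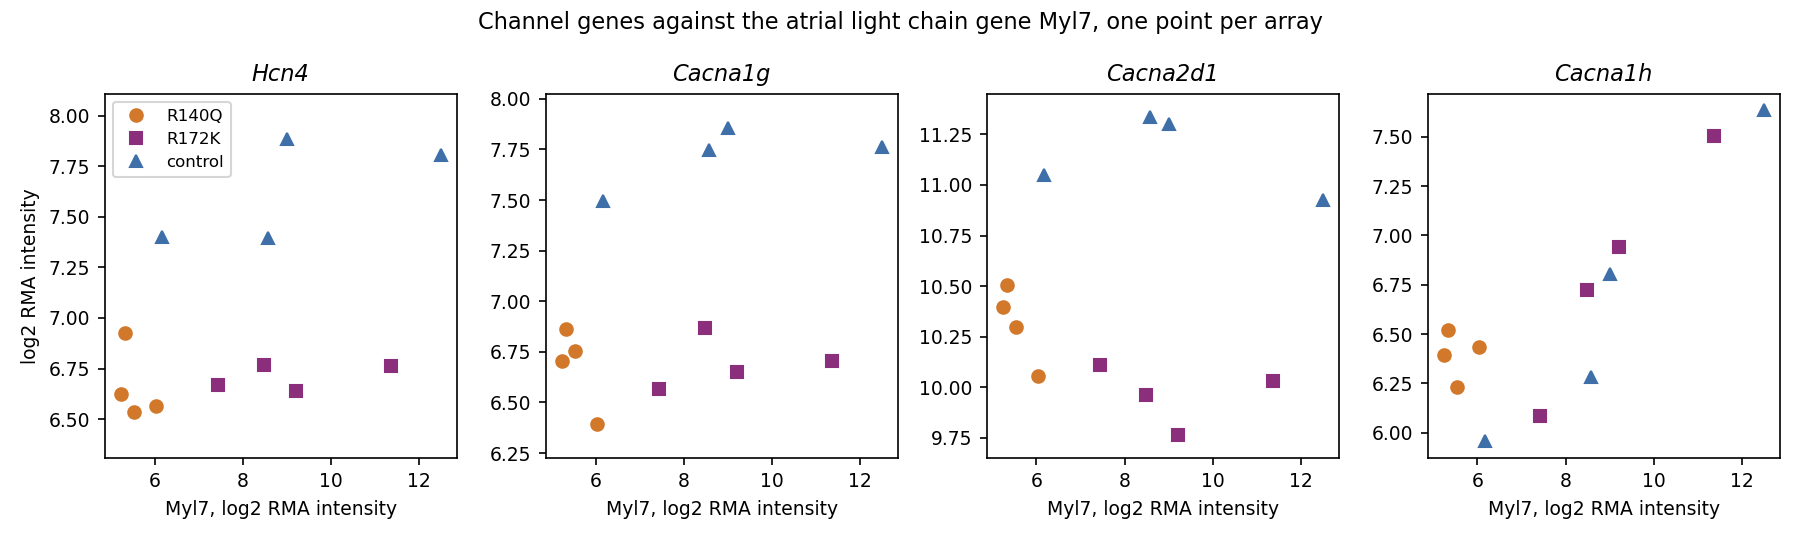
Log2 RMA intensity of Hcn4, Cacna1g, Cacna2d1 and Cacna1h (vertical axes) against that of the atrial gene Myl7 (horizontal axes), with a point for each array. At like Myl7 values R172K hearts lie below control hearts for Hcn4, Cacna1g and Cacna2d1, while Cacna1h was highest in the R172K and control arrays with the most Myl7.

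Hcn4 and Cacna1g are genes of nodal and atrial tissue too, so their values were set beside Myl7. Control 2, with a Myl7 of 6.18, had 7.40 for Hcn4 and 7.50 for Cacna1g, and control 3, with a Myl7 of 12.49, had 7.80 and 7.76. R172K 3, with a Myl7 of 11.36, had 6.76 for Hcn4 and 6.71 for Cacna1g. Without control 3, R172K 3 and R140Q 4 the calls still numbered 3 of 8 for R140Q and 5 of 8 for R172K. Without R172K 4, which had the lowest R172K values of Hcn2, Hcn4, Cacna1c, Cacnb2 and Cacna2d1, they numbered 3 and 4, the call of Cacna1c having ended. With Myl7 as a covariate 5 of 8 remained for R172K and 0 of 8 for R140Q, where the adjusted p-values were 0.1 for Hcn4 (log2 difference -0.79), 0.0545 for Cacna1g (-0.95) and 0.0622 for Cacna2d1 (-0.95). All 4 R140Q hearts had less Myl7 than any control heart, so that covariate partly follows the group. The count of all genes called for R140Q, 439 in the main fit, changed with that covariate too. Over the alternatives that kept the thresholds and left no single array out, that count ran from 13 to 1651. With Myl7 as a covariate the R140Q calls of Cacnb4, Fgf14, Hopx, Cntn2, Kcnj5, Cdh5 and Kdr ended too (limma adjusted p from 0.109 to 0.37). These genes belong to the channel, regulator and marker lists below, so the loss of calls was not particular to the members.

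Of the L-type channel members, Cacna1c and Cacna2d1 fell in R172K hearts and Cacnb2 did not pass the test. Cacna1c, the pore gene, stood at 10.57, 10.78, 10.51 and 10.89 in R140Q hearts, at 10.53, 10.47, 10.81 and 10.14 in R172K hearts, and at 11.18, 11.10, 10.77 and 10.90 in control hearts. The groups overlapped through control 3 and R172K 3. In R140Q hearts the difference was -0.30 ± 0.14 (95% interval -0.60 to 0.00, limma adjusted p = 0.301). In R172K hearts Cacna1c fell by 0.50 ± 0.14 (95% interval -0.80 to -0.20, adjusted p = 0.0337), or to 0.71 times the control level. That call ended without control 1, 2 or 4 or R172K 1, 2 or 4 (adjusted p from 0.0555 to 0.0989) and in the fit to control and R172K arrays alone (0.0613). Without control 3, R172K 3 and R140Q 4 it was -0.68 (adjusted p = 0.00649).

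Cacna2d1, whose product raises the number of channels at the cell surface and is the binding site of gabapentin, showed the largest decrease among the 8 genes in R172K hearts. Its log2 intensity was 10.06, 10.51, 10.30 and 10.40 in R140Q hearts, 9.96, 10.11, 10.03 and 9.77 in R172K hearts, and 11.34, 11.05, 10.92 and 11.30 in control hearts. Neither mutant overlapped with control. Cacna2d1 fell by 0.84 ± 0.12 in R140Q hearts (95% interval -1.09 to -0.58, limma adjusted p = 0.00506). It fell by 1.18 ± 0.12 in R172K hearts (95% interval -1.44 to -0.93, adjusted p = 0.000678). The difference between the mutants, -0.35 ± 0.12, had an unadjusted p of 0.0122 and did not pass the test over all genes (adjusted p = 0.161). A second probe set of the gene had differences of -0.71 and -0.94, also called in both comparisons when every probe set was tested (adjusted p = 0.0133 and 0.00179).

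Cacnb2 encodes the main beta subunit of the heart's L-type channel, but its probe set is tied to a single sequence accession that is no RefSeq transcript. The sources used here do not say which Cacnb2 transcripts it reads. Its log2 intensity ranged from 5.46 to 5.67 in R140Q, from 5.50 to 5.89 in R172K and from 5.65 to 5.81 in control hearts. The difference was -0.17 ± 0.08 for R140Q (95% interval -0.35 to 0.01, limma adjusted p = 0.331) and -0.06 ± 0.08 for R172K (95% interval -0.24 to 0.12, adjusted p = 0.704).

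Scn4b, the sodium channel beta subunit gene, varied more within groups than 99.8% of the genes tested. It stood at 8.02, 8.17, 6.95 and 7.83 in R140Q hearts, at 5.63, 7.73, 7.51 and 5.69 in R172K hearts, and at 5.71, 6.17, 7.59 and 7.86 in control hearts. Both the R172K and the control hearts fell into a low pair and a high pair, and no R140Q heart lay as low as the low pairs. The difference was 0.91 ± 0.57 for R140Q (95% interval -0.32 to 2.15, limma adjusted p = 0.473), -0.19 ± 0.57 for R172K (95% interval -1.43 to 1.05, adjusted p = 0.881) and -1.10 ± 0.57 for R172K minus R140Q (adjusted p = 0.377). With this spread a change of 2-fold in either direction lies within the interval of the R172K comparison.

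**Figure D3:**
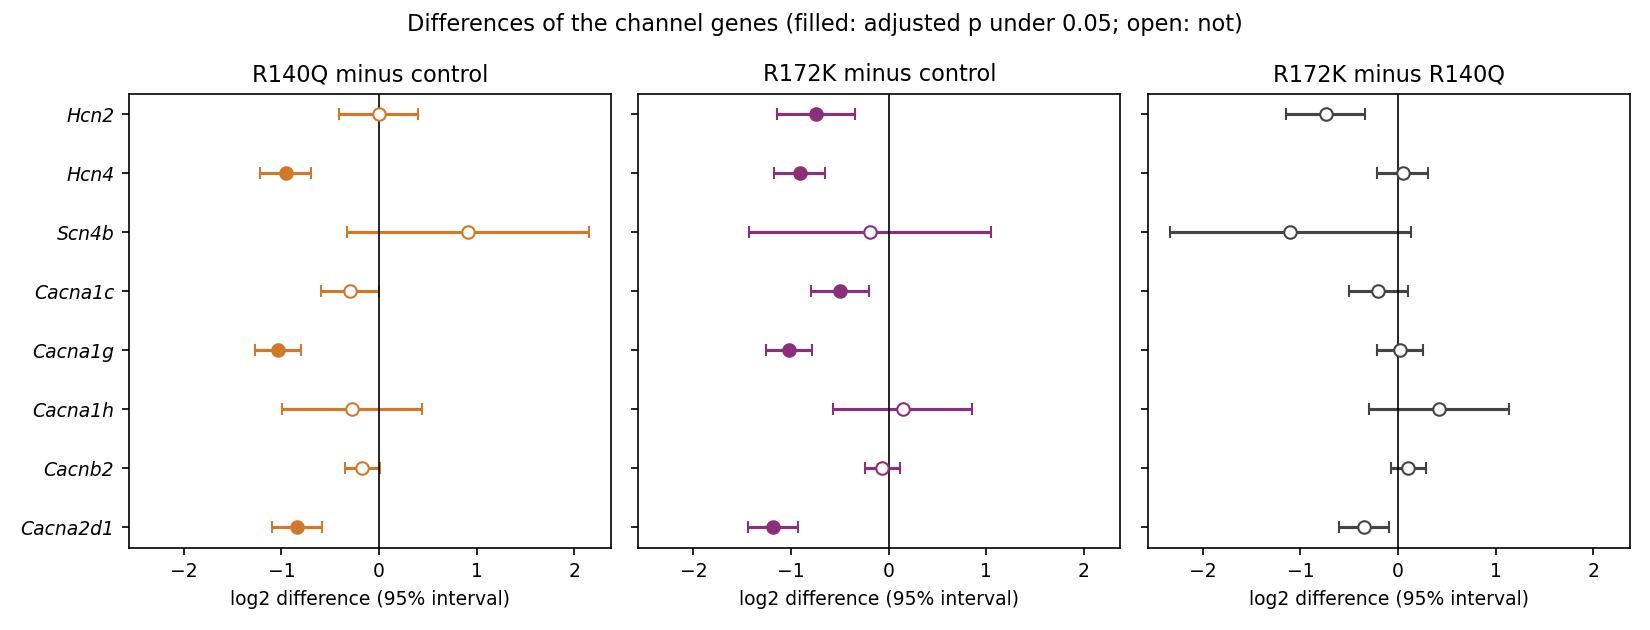
Log2 differences of the 8 channel genes (horizontal axes) for R140Q minus control, R172K minus control and R172K minus R140Q, with limma's 95% intervals. Filled points passed an adjusted p under 0.05, which 3, 5 and 0 genes did in the 3 comparisons.

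The direct comparison of R172K with R140Q hearts called 0 of the 8 genes by limma, where 1.48% of all genes were called (0.998% lower and 0.487% higher in R172K hearts). At an unadjusted p under 0.05 it held 2, Hcn2 and Cacna2d1, both lower in R172K hearts. Calls of Hcn2 and Cacna1c in R172K but not R140Q hearts thus do not by themselves show that the mutants differ in these genes. For Cacna1c the direct difference was -0.20 (95% interval -0.50 to 0.10, limma adjusted p = 0.535). For Hcn2 it was -0.74 (95% interval -1.14 to -0.33, limma unadjusted p = 0.00173). The Hcn2 interval lay below 0, but the difference did not pass over all genes (adjusted p = 0.0708). Hcn2 passed in 3 alternatives, namely without the dimmer genes, with array weights and without R172K 3, so that 1 of 8 was called there.

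Other genes of the same channel families were measured beside the 8. Of the pacemaker channels Hcn3 was the other gene measured, with differences of 0.07 in R140Q and 0.003 in R172K hearts, neither of which passed. Of 8 sodium channel pore genes none passed the test in either mutant, with log2 differences between -0.23 and 0.29, and neither Scn2b nor Scn3b passed. Of the 7 other calcium channel pore genes none passed, with differences between -0.28 and 0.14, among them Cacna1d, the L-type pore gene of the sinoatrial node (-0.28 in R140Q and 0.01 in R172K hearts), and Cacna1i, the remaining T-type pore gene (-0.01 and -0.03).

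Of 12 other auxiliary calcium channel genes none fell, 1 rose in R140Q hearts and 3 rose in R172K hearts. The beta subunit gene Cacnb4 had 6.55 ± 0.21 in R140Q, 6.52 ± 0.10 in R172K and 5.94 ± 0.27 in control hearts, and rose by 0.61 ± 0.13 in R140Q (limma adjusted p = 0.0347) and by 0.58 ± 0.13 in R172K hearts (adjusted p = 0.0135). Its R140Q call ended without any of R140Q 1 to 3 or control 1 to 3 (adjusted p up to 0.112). The gamma subunit gene Cacng7 rose by 0.46 ± 0.09 in R172K hearts (adjusted p = 0.00785) and differed by 0.34 in R140Q hearts (adjusted p = 0.0764). Cacng3, dim at a mean log2 intensity of 4.22, rose by 0.29 ± 0.08 in R172K hearts (adjusted p = 0.033), a call that ended in 10 of 26 alternatives, with adjusted p up to 0.1. These genes are best known from brain, and no detection calls were at hand to say whether the signal exceeds background.

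**Figure D4:**
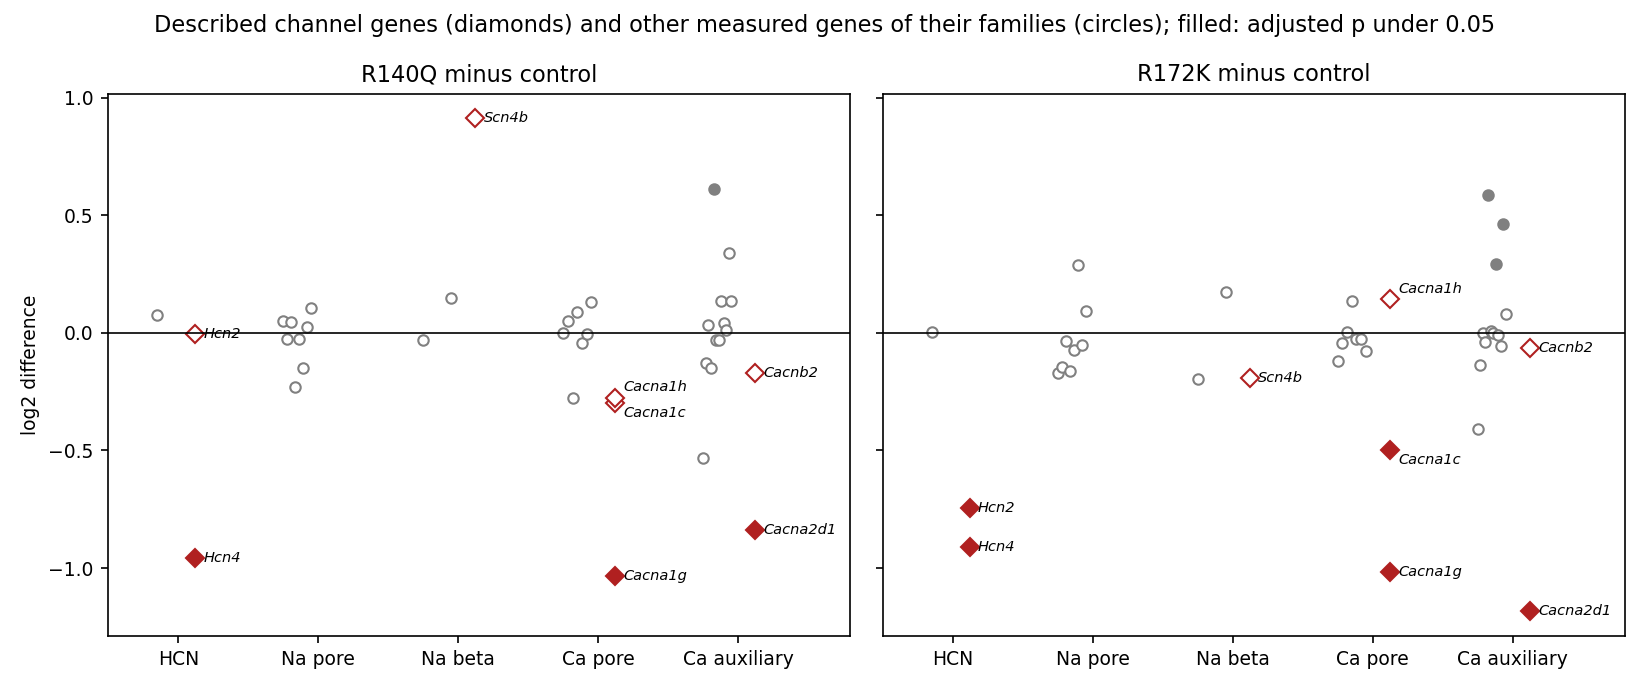
Log2 differences (vertical axis) of the 8 described genes (diamonds, named) and of the other measured genes of their channel families (circles), for R140Q minus control and R172K minus control. Filled symbols passed an adjusted p under 0.05. The filled diamonds lie below 0 and the filled circles, all auxiliary calcium channel genes, above 0.

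Partners and modulators of these channels moved in both directions. Of 26 measured, 0 rose and 1 fell in R140Q hearts, and 2 rose and 5 fell in R172K hearts. Of those 5, Fgf14 and Akap7 passed in every alternative, while the calls of Rangrf, Camk2d and Bves ended in 13, 12 and 14 of 27. Rangrf (adjusted p = 0.052) and Camk2d (0.13) were among those lost without control 3, R172K 3 and R140Q 4. Fgf14, a fibroblast growth factor homologous factor that binds sodium channel pores, fell by 1.24 ± 0.17 in R140Q (limma adjusted p = 0.00472) and by 1.13 ± 0.17 in R172K hearts (adjusted p = 0.00255). It averaged 5.67 ± 0.31 in R140Q, 5.77 ± 0.32 in R172K and 6.90 ± 0.15 in control hearts. With Myl7 as a covariate its R140Q call ended (adjusted p = 0.109). The calmodulin genes Calm3 and Calm2, whose product sits on the L-type pore and closes it as calcium rises, rose by 1.01 ± 0.11 (adjusted p = 0.000678) and 0.79 ± 0.13 (adjusted p = 0.0034) in R172K hearts. In R140Q hearts they differed by 0.46 (adjusted p = 0.0515) and 0.31 (adjusted p = 0.226). Akap7, a kinase anchor of the L-type channel, fell by 0.60 ± 0.12 in R172K hearts (adjusted p = 0.00842).

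Of 17 transcription factor genes of pacemaker and conduction tissue, 1 passed in each mutant, the homeodomain-only gene Hopx. It averaged 8.91 ± 0.36 in R140Q, 8.59 ± 0.62 in R172K and 10.01 ± 0.10 in control hearts, and fell by 1.10 ± 0.25 in R140Q (limma adjusted p = 0.0469). It fell by 1.43 ± 0.25 in R172K hearts (adjusted p = 0.00517). The R140Q call of Hopx ended in 16 of 27 alternatives. Tbx3, which specifies the sinoatrial node, had differences of -0.15 and -0.16, and Rest, a repressor of Hcn4, Hcn2 and Cacna1h in mouse ventricle, of 0.03 and -0.01, none of which passed. Tbx5, also on the atrial list, averaged 8.29 in R140Q, 9.08 in R172K and 9.36 in control hearts. Its R140Q difference of -1.07 ± 0.26 fell just short of the threshold (limma adjusted p = 0.0525).

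Of 16 conduction tissue markers 2 fell in R140Q hearts and 3 in R172K hearts, and none rose. The inward rectifier subunit Kcnj5 fell by 1.25 ± 0.18 in R140Q (limma adjusted p = 0.00545) and by 0.90 ± 0.18 in R172K hearts (adjusted p = 0.00889), and its R140Q call ended with Myl7 as a covariate (0.142). The adhesion gene Cntn2, a marker of Purkinje cells of the heart, fell by 0.71 ± 0.14 in R140Q (adjusted p = 0.0258) and by 0.71 ± 0.14 in R172K hearts (adjusted p = 0.00827). Its R140Q call ended in 9 of 27 alternatives, among them the fit without control 3, R172K 3 and R140Q 4 (adjusted p = 0.0997). Kcnj3 fell by 1.16 ± 0.30 in R172K hearts (adjusted p = 0.0237) and differed by -0.92 in R140Q hearts (adjusted p = 0.129). The R172K call of Kcnj3 ended in 5 of 27 alternatives, among them without R172K 4 (adjusted p = 0.06). The summed intensity of the 16 markers ran from 2720 to 3047 in R140Q, from 2475 to 3322 in R172K and from 3435 to 4984 in control hearts. Kcnj3 and Kcnj5 are among the brightest of the list and carry much of that sum. The median log2 difference of the 16 was -0.21 in R140Q and -0.14 in R172K hearts, with -0.02 and 0.15 for Gjc1 and -0.05 in both for Gjd3, connexin genes of conduction tissue. Shox2 and Isl1, which define the sinoatrial node, were dim throughout, at 4.05 to 4.45 and 4.82 to 5.29. The part of conduction tissue content in the decrease of Hcn4 and Cacna1g was not tested.

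Marker sums of other cell types also differed between groups. Those of 5 ventricular muscle markers ran from 23349 to 24051 in R140Q, from 15354 to 22923 in R172K and from 24084 to 26456 in control hearts, and those of 10 heart muscle markers from 88156 to 94066, from 77496 to 89863 and from 95717 to 100992. Those of 8 nerve and glial markers ran from 563 to 617 in R140Q, from 519 to 604 in R172K and from 643 to 693 in control hearts, with 0 of 8 passing in either mutant. Fibroblast marker sums ran from 10264 to 15053 in R140Q, from 11910 to 22956 in R172K and from 9763 to 13188 in control hearts, with 4 of 8 higher in R172K hearts. Of 10 heart muscle markers 0 passed in R140Q hearts and 5 were lower in R172K hearts, the largest by 0.49 in log2 (Ryr2). Without R172K 4 only Ttn of these 5 passed (limma adjusted p = 0.0397). Endothelial marker sums ran from 6928 to 7581 in R140Q, from 6255 to 7089 in R172K and from 5483 to 6078 in control hearts, with 2 of 5 higher in R140Q and 1 in R172K hearts. Of the R140Q calls that of Kdr ended without control 3, R172K 3 and R140Q 4 (adjusted p = 0.0584). Atrial marker sums (12 genes) ran from 4982 to 15827 in R140Q, 16225 to 27451 in R172K and 8971 to 35427 in control hearts. Their median log2 difference was -0.72 in R140Q hearts, where 0 of 12 passed, and 0.08 in R172K hearts, where 1 was higher. In the same order, macrophage sums ran from 875 to 1046, 760 to 2129 and 759 to 1052. Smooth muscle and pericyte sums ran from 9999 to 11420, 9112 to 11644 and 10090 to 11726. The part of these shifts in the channel results was not tested.

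The genes whose values over the 12 arrays were nearest to each called channel gene were found by the root mean square difference of log2 values, each gene being centred on its own mean. Genes chosen in this way share the group pattern of the channel gene by construction, so their group differences are no separate result. Nearest to Hcn4 were Cntn2 (0.152), Gm10635 (0.16) and Qsox2 (0.162), where Hcn4 itself had an SD of 0.49 over the arrays. Nearest to Cacna1g were the dopamine receptor gene Drd2 (0.177), Qsox2 (0.196) and Cntn2 (0.213), so Hcn4 and Cacna1g shared Qsox2 and Cntn2. Nearest to Cacna2d1 were Plekhh1 (0.155), the calmodulin-binding gene Pcp4 (0.193) and the anion exchanger gene Slc26a6 (0.201). Nearest to Hcn2 were the calcium-activated potassium channel gene Kcnn2 (0.153), Lyrm9 (0.182) and Rap1gap2 (0.201), all lower in R172K hearts (differences from -0.81 to -0.52) and near 0 in R140Q hearts (from -0.06 to 0.01). Nearest to Cacna1c were Lsm14b (0.09), the respiratory complex III gene Uqcr11 (0.1) and Nrbp2 (0.101).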

How the data were processed

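Total RNA of mouse hearts was profiled on 12 arrays, 4 per group, grouped by the sample titles. The authors' deposited table holds 1 RMA intensity per probe set and array, for which the submitters' processing notes name RMA and give no version. The intensity is linear, with array medians from 74.8 to 78.0 and a lowest value of 4.43, so log2 was taken with no pseudocount. RMA sets arrays to a like distribution, which hides a change shared by most genes.

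Of 34760 probe sets, 21640 carried 1 symbol in the platform table, 1321 several and 11799 none, leaving 19937 genes. Group means were fitted with lmFit and eBayes of limma 3.58.1 under R 4.3.3 (two-sided tests, 9 residual and 3.54 prior degrees of freedom), with Benjamini-Hochberg adjustment over all genes and a threshold of 0.05. The fit was tested on simulated data. Ratios of gene pairs were compared by exact permutation. Errors are limma's SE for differences and SD of 4 arrays for groups. The number of arrays limits the precision. No detection calls were used.

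The closest arrays, control 2 and control 1, differed by 0.166 (root mean square, log2), against a median of 0.309 over all pairs. The members, lists and tests were chosen with earlier results of these data known. Named were the 8 members, up to 4 called genes per channel or regulator list by smallest p, up to 3 of the brightest genes per cell type list, Idh2 and the 3 nearest genes of called members. Further markers (Myl7, Sftpc, Ryr2, Ttn, Kdr, Cdh5, Tbx3, Tbx5, Shox2, Isl1, Gjc1, Gjd3), Rangrf, Camk2d, Bves, Rest and the family members that did not pass were named after their values were seen. Alternatives changed the arrays fitted, the replicate block, probe set, filter, normalization, pseudocount, variance model, weights, thresholds, a Myl7 covariate and each array left out.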

Additional observations from a re-analysis of the deposited data

Results flagged for a closer look

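Among genes of the lists used here, 3 differed between the mutants by limma's direct contrast of R172K with R140Q hearts. They were 1 of 26 channel partners, 1 of 12 atrial markers and 1 of 8 fibroblast markers, and the other lists held 0. Of all genes, 1.48% were called in that contrast. The share over all list genes was not counted, so the 3 are not read as more than that background. The calmodulin gene Calm3 was higher in R172K hearts by 0.555 in log2 (limma adjusted p = 0.04), with 10.84 ± 0.21 in R172K and 10.29 ± 0.14 in R140Q hearts. Its call ended in 17 of 27 alternatives (adjusted p up to 0.158). The atrial light chain gene Myl4 was higher by 3.52 (limma adjusted p = 0.0458), a call that ended in 16 of 27 alternatives (adjusted p up to 0.19). The fibroblast gene Pdgfra was higher by 0.75 (limma adjusted p = 0.0207), a call that ended in 9 of 27 alternatives (adjusted p up to 0.0901). In each case no R172K heart overlapped with an R140Q heart, but the share of all genes so placed in this direction was not counted. Dixon's test of 30 groups of 4, over the members and gene pairs, flagged 0. With 4 arrays it flags only an extreme gap, so arrays may still stand apart, as control 3 did for Cacna1g over Cacna1h.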

How the results depend on the processing

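The 3 decreases in R140Q hearts passed in every alternative except Myl7 as a covariate, where 0 of 8 members were called, and the decreases of Hcn4, Cacna1g and Cacna2d1 in R172K hearts passed in every alternative. For R172K against control the count was 3 at an adjusted p under 0.01 and from 3 to 5 with an array left out. For R172K against R140Q it was 1 without the dimmer genes, 1 with array weights and from 0 to 1 with an array left out. The count of all genes called moved far more with an array left out, from 100 to 1015 (439 with all arrays), from 1327 to 4157 (2593) and from 1 to 1577 (296) in the 3 contrasts, and the other alternatives, thresholds aside, gave 13 to 1651, 1788 to 4491 and 5 to 1774.

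With an array left out, the shift of Hcn4 over Hcn2 ran from -1.062 to -0.839 for R140Q against control and from 0.624 to 0.923 for R172K against R140Q. That of Cacna1g over Cacna1h ran from -1.066 to -0.595 for R140Q and from -1.466 to -0.933 for R172K against control.

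None of the differences that changed sign was called, and the cause was not tested. Centring arrays on their median gave 0.02 for Hcn2 (R140Q minus control) and -0.01 for Cacna1g (R172K minus R140Q), and quantile normalization gave -0.008 for Cacna1g. Without control 3, R172K 3 and R140Q 4, Cacna1h was at 0.045 (R140Q minus control) and Cacnb2 at -0.002 (R172K minus R140Q). With Myl7 as a covariate Cacna1h was at 0.743 (R140Q minus control) and -0.618 (R172K minus R140Q), Hcn4 at -0.126 and Cacna1g at -0.069 (both R172K minus R140Q). With an array left out, R140Q minus control ran from -0.084 to 0.114 for Hcn2 and from -0.514 to 0.046 for Cacna1h, R172K minus control ran from -0.566 to 0.153 for Scn4b, from -0.095 to 0.465 for Cacna1h and from -0.132 to 0 for Cacnb2, and R172K minus R140Q ran from -0.076 to 0.08 for Cacna1g.

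Samples of the same replicate number did not deviate together (2 of 12 correlations over 0.1, 1 of 12 samples closest to its own number), so they share only a number. With the replicate block, Hcn4, Cacna1g and Cacna2d1 stayed called in both mutants, and Cacna1c in R172K hearts did not pass (adjusted p = 0.07).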
